A study of Mus musculus with 90 samples.

Results

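Primary skeletal myoblasts of MyoD-/- mice were compared after 4 days in differentiation medium (4d) with the same cultures before the change of medium (0h). Each time held 3 cultures, named 1999, P6 and P10. Every RNA sample was hybridised to the chip designs MG_U74Av2, MG_U74Bv2 and MG_U74Cv2, so 18 of the 90 arrays of the series, from 6 of its 30 RNA samples, entered by their labelled time. At 0h the medium was Ham's F10, to which fetal bovine serum and bFGF (basic fibroblast growth factor) were added, and at 4d they had been kept in DMEM with horse serum. Both times carry the same genotype, so the comparison is between times and media within MyoD-/- cells. The labels do not say what the culture names stand for, whether the cultures came from separate mice, or how the null allele was made. P-values therefore rest on the spread between these 3 cultures. In the fit over all 30 arrays of a chip this spread was estimated over all 10 times and not from 0h and 4d alone. The same cultures recur at each time, and that fit treated their arrays as independent.

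Skeletal myoblasts divide while growth factors are plentiful, and leave the cell cycle when these are withdrawn. They then express myogenin and MEF2 factors, which switch on the genes of contraction, and fuse into multinucleated myotubes. MyoD is one of the transcription factors that start this program in the mouse, and Myf5 is a close relative that can act in its place. In bulk RNA, fewer cells of a type and less RNA per cell cannot be told apart.

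The 1999 arrays of 4d stood apart in their instrument record and, on some measures, in their values. On all 3 chips they were read on a scanner of type M10 with a pixel of 2.5 µm and 1 scan, while every 0h array and every other 4d array with a record was read on an HP scanner with a pixel of 3 µm and 2 scans. On MG_U74Av2 the 1999 sample of 4d correlated with the P6 and P10 samples of 4d at r = 0.888 and 0.823 over 7423 probe sets and with its own 0h sample at 0.875, while P6 and P10 correlated with each other at 0.941 (a description, over probe sets of the same arrays). On MG_U74Bv2 the values with P6 and P10 were 0.813 and 0.77, against 0.87 between P6 and P10. On MG_U74Cv2 they were 0.848 and 0.815 against 0.852, so 1999 stood less apart there. The probe set for 18S ribosomal RNA, a control, was lowest of the 6 samples in the 1999 sample of 4d on every chip. On MG_U74Av2, for example, it read 1606 there against 6488 to 48231 in the other 5. The 1999 sample of 48h, read on the HP scanner, gave 1403 on that chip. The ratios of 3′ to 5′ control signal were alike at both times, between 0.73 and 0.96 for *Gapdh* at 0h and, again, between 0.73 and 0.96 at 4d over the 3 chips. RNA concentrations were 3325.8, 4327.4 and 1468.0 ng/µL at 0h and 1815.8, 2485.4 and 1130.3 ng/µL at 4d in 1999, P6 and P10. The part of the scanner in the results was not tested. The counts of probe sets that passed at 4d against 0h are also given without these arrays, but most counts of the gene lists are not.

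Signals below are linear MAS5 intensities, listed in the order 1999, P6 and P10. The targeted gene gave *Myod1* signals of 3008, 3803 and 4389 at 0h and of 3665, 4828 and 3952 at 4d. The groups overlapped (log2 fold change 0.15 ± 0.31, SE, n = 3 per group, adjusted p = 0.86 in limma). Which part of the transcript this probe set covers was not analysed here, so its signal does not check the genotype. *Myf5* read 2451, 2466 and 1896 at 0h and 2064, 1965 and 3129 at 4d, also with overlap (0.05 ± 0.30, adjusted p = 0.96). All 8 myoblast markers (*Des*, *Myf5*, *Myod1*, *Cdh15*, *Itga7*, *Chrna1*, *Myog* and *Vcam1*) lay above the chip median in every 4d sample and 6 of them in every 0h sample, as the label of skeletal myoblasts calls for.

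In all, 1357 of 24307 probe sets passed an adjusted p of 0.05 in a limma model of time over all 30 arrays of a chip (5.58%), 597 higher at 4d (2.46%) and 760 lower (3.13%). With culture as a block the counts were 1419 higher (5.84%) and 1264 lower (5.20%), together 11.0%. Represented by 1 probe set each, 923 of 12373 genes passed (7.46%), 387 higher (3.13%) and 536 lower (4.33%), and 922 of the 923 moved the same way in all 3 cultures. Selection by a test on the same arrays favours such agreement, so it is no separate support. With culture as a block 946 genes were higher (7.65%) and 857 lower (6.93%), and all 923 were among these. Leaving out the 1999 arrays of 4d gave 542 probe sets higher and 722 lower. Without P6 altogether, 125 were higher and 218 lower, the fewest of the fits that left out 1 culture, with 180 and 245 without P10 and 414 and 570 without 1999. Below, "rose" and "fell" are used for genes that passed the model of time, and genes that passed only with culture as a block are named as such. Counts at an unadjusted p under 0.05 in limma are given for some lists. The share of all genes at that threshold is not given, so no excess is read from these counts.

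Among the genes with the largest rises that passed, several encoded proteins of the cell surface, the matrix and signalling. *Itm2a*, which encodes a membrane protein that marks muscle and cartilage differentiation, read 578, 984 and 1097 at 0h and 13944, 23730 and 32136 at 4d. The lowest 4d sample lay far above the highest 0h sample, and the gene rose 22.6-fold (log2 fold change 4.50 ± 0.36, adjusted p = 3.9e-08). *Cdh13*, a cadherin without a cytoplasmic domain, rose 10.5-fold from 57, 275 and 347 to 2663, 3604 and 3470 (3.39 ± 0.40, adjusted p = 1e-05). Its further probe sets changed less, with log2 fold changes from −0.20 to 1.23, of which those of 1.23 and 1.18 passed.

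*Aldh1a1*, a retinal dehydrogenase that makes retinoic acid, rose 18.7-fold from 101, 162 and 146 to 8453, 3329 and 3570 (4.23 ± 0.73, adjusted p = 0.00072). It was the only 1 of 11 tested genes of the retinoid pathway that passed, where 7.46% of all genes passed. *Fos*, the immediate-early partner of Jun in AP-1, rose 11.7-fold from 290, 379 and 219 to 7909, 6067 and 2136 (3.55 ± 0.72, adjusted p = 0.0034). Here 1999 was the highest of the 4d samples. *C1qtnf3*, a secreted protein of the adiponectin family, rose 15.8-fold, *Fhl1*, a LIM-domain protein of muscle, 14.5-fold, and *Klhl40*, a stabiliser of thin filament proteins, 11.6-fold. These 3 were highest in P10, at 60338, 24486 and 46716, and lowest in 1999, at 6017, 3388 and 1591, but every 4d sample lay above every 0h sample. *Adamts5*, a protease of proteoglycans, and *St3gal5*, the synthase of ganglioside GM3, rose 10.8-fold and 8.86-fold.

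**Figure D1:**
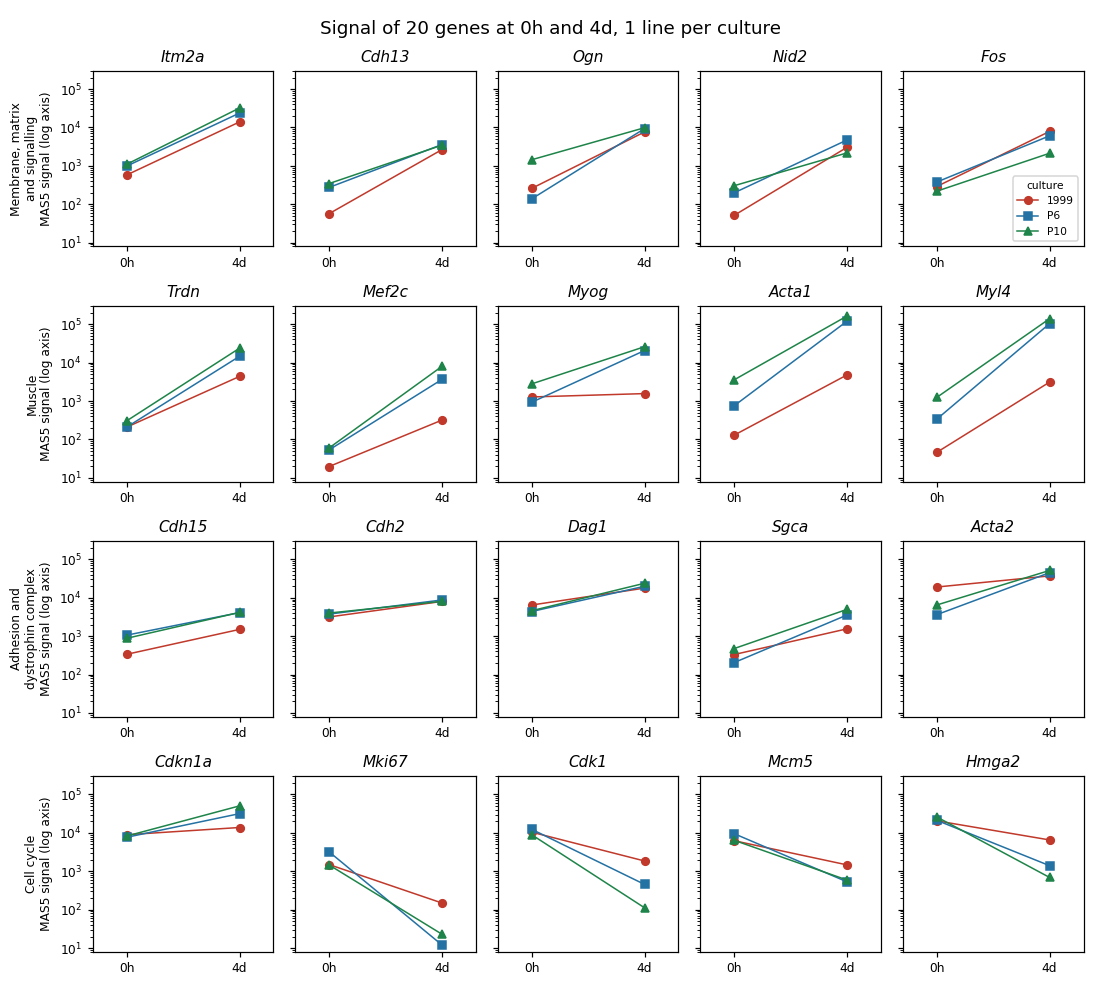
MAS5 signal (log axis) of 20 genes at 0h and 4d, with 1 line for each culture. *Itm2a*, *Cdh13* and *Dag1* climbed in each of the 3 cultures. *Myog* climbed to 20647 and 25961 in P6 and P10 but read 1561 in 1999. The cell cycle genes other than *Cdkn1a* dropped in every culture, least in 1999.

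Structural muscle genes were far higher at 4d in P6 and P10 and in many cases near their 0h level in 1999. The sarcomere list held 39 tested genes. None of them passed in the model of time. There 29 had an unadjusted p under 0.05 in limma, a threshold for which no share of all genes is given. With culture as a block 32 were higher, against 7.65% of all genes. The median change over the 39 genes was 2.91 log2, against −0.035 over all genes tested. It was 0.13 in 1999, 3.39 in P6 and 4.92 in P10. When the 1999 arrays of 4d were left out 13 of the 39 passed as higher, when culture 1999 was left out 18, and without P6 or without P10 none did. The blocked count of 32 was 9 without P6, 4 without P10, 34 without 1999 and 4 in the 6 samples alone. The groups did not overlap for 19 of the 39, against 12.0% of all genes.

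*Myl4*, the atrial and embryonic essential light chain of myosin, read 45.9, 335 and 1237 at 0h and 3114, 103924 and 139453 at 4d. Every 4d sample was above every 0h sample, with 1999 by far the lowest at both times. The fold over the means of logs was 77.2 (log2 fold change 6.27 ± 2.05, adjusted p = 0.079, and 0.00022 with culture as a block). A second *Myl4* probe set on the same chip gave 1.44 and passed in the model of time (adjusted p = 0.034).

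*Acta1*, skeletal α-actin of the thin filament, read 129, 752 and 3561 at 0h and 4796, 120450 and 163656 at 4d (5.63 ± 2.14, adjusted p = 0.14, and 0.0013 with the block). At both times P10 was the highest and 1999 the lowest. *Tnnc1*, the slow and cardiac troponin C, went from 68.6, 375 and 686 to 1730, 70070 and 133175 (adjusted p = 0.1, and 0.00039 with the block). *Myl1*, the fast essential light chain, also passed only with the block (5.50 ± 1.67, adjusted p = 0.054, and 0.00026 with the block).

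Heavy chains of myosin were low in 1999 at 4d. *Myh3*, the embryonic form, read 180 in 1999 against 18865 in P6 and 44002 in P10, from 39, 12.5 and 224 at 0h, so that the groups overlapped (adjusted p = 0.25, and 0.0031 with the block). *Myh7*, the slow form, read 150, 8557 and 19376 at 4d and 167, 83.3 and 126 at 0h, with a probe set whose suffix marks a gene family. *Myh1*, an adult fast form, passed with the block as well (adjusted p = 0.0066), at 256 in 1999 and 40960 in P10. The lowest member of the list was *Ttn*, titin, the spring of the sarcomere, with −0.02 (adjusted p = 0.98). For 15 of the 39 genes the 0h mean lay under the value added before the logarithm, which limits their folds.

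Of the 14 tested activators of myogenesis, 0 passed in the model of time (2 at an unadjusted p under 0.05 in limma), while 5 were higher with culture as a block (*Mef2c*, *Myog*, *Smyd1*, *Myf6* and *Mef2d*, with *Smyd1* named only to complete the count), with a median of 0.55. Of all genes 7.65% were higher with the block. *Myog*, the factor that commits myoblasts to terminal differentiation, read 1276, 927 and 2790 at 0h and 1561, 20647 and 25961 at 4d. The 1999 sample of 4d lay below P10 at 0h, so the groups overlapped (2.58 ± 1.56, adjusted p = 0.42, and 0.02 with the block). *Mef2c*, a MADS-box partner of the myogenic factors, read 19.7, 53.3 and 60 at 0h and 319, 3662 and 8014 at 4d, with no overlap (3.87 ± 1.40, adjusted p = 0.12, and 0.0016 with the block). Of its 6 further probe sets, all gave a positive log2 fold change, between 1.27 and 3.17, and 5 passed with the block.

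Among 18 inhibitors of myogenesis 4 fell and 1 rose, against 4.33% and 3.13% of all genes. Without P6 none passed, without P10 1 fell and 0 rose, and without 1999 2 fell and 1 rose. *Hmga2*, a chromatin protein of proliferating progenitors, fell 11.2-fold from 20609, 21251 and 26071 to 6541, 1399 and 690 (−3.49 ± 0.95, adjusted p = 0.03). *Id2* and *Id1*, which bind E proteins and keep them from the myogenic factors, fell 3.62-fold and 2.33-fold, and *Twist2* fell 3.07-fold. The 0h and 4d samples did not overlap for any of these 4. *Zeb1*, a repressor of E-box genes, rose 2.09-fold (1.06 ± 0.22, adjusted p = 0.0045).

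The calcium machinery that couples excitation to contraction had 2 of 19 tested genes higher in the model of time (3.13% of all genes) and 13 with culture as a block (7.65% of all genes). Without P6 the counts were 0 and 5, without P10 1 and 3, and without 1999 7 and 14, and the 6 samples alone with the block gave 1. Its median was 1.81 log2 (0.19 in 1999, 2.24 in P6 and 2.86 in P10). *Trdn*, triadin, which anchors calsequestrin to the ryanodine receptor, rose 23.3-fold from 208, 208 and 303 to 4370, 14595 and 23704 (4.54 ± 0.71, adjusted p = 0.0002), and a second probe set rose as well (5.23 ± 0.99). *Jph2*, junctophilin, which ties the sarcoplasmic reticulum to the transverse tubule, rose 6.88-fold from 948, 730 and 488 to 3144, 7625 and 10903 (2.78 ± 0.81, adjusted p = 0.04). In 1999 alone *Trdn* changed by 3.28 and *Jph2* by 1.49 on the log2 scale.

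With the block, *Atp2a1*, the calcium pump of fast muscle, was higher (121, 438 and 94.6 at 0h, 1135, 16102 and 31780 at 4d, adjusted p = 0.00012), as were the release channel *Ryr1* (95, 34.3 and 154 to 228, 3044 and 5004, adjusted p = 0.0019) and the channel subunit *Cacng1* (adjusted p = 0.00092). The list's lowest value was that of *Asph*, which encodes junctin among its products (−0.28, adjusted p = 0.76).

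At the neuromuscular synapse 1 of 16 genes rose (3.13% of all genes), and 0 did without P6. With the block 7 were higher (7.65% of all genes). *Chrng*, the fetal γ subunit of the acetylcholine receptor, rose 8.2-fold from 174, 148 and 986 to 1291, 4332 and 7527 (3.04 ± 0.73, adjusted p = 0.013). *Chrna1*, the α subunit, read 1586, 540 and 1267 at 0h and 1750, 9931 and 23369 at 4d and passed with the block (adjusted p = 0.12, and 0.0012 with it). In 1999 the log2 change was 0.13 for the α subunit and 2.26 for the γ subunit. *Rapsn*, which clusters the receptors, and *Lrp4*, the agrin receptor, were also higher with the block.

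Among 20 genes of fusion and adhesion 3 rose (3.13% of all genes), and 0 did without P6. With the block 11 were higher and 1 lower (7.65% and 6.93% of all genes). *Cdh15*, M-cadherin, rose 3.79-fold from 336, 1059 and 877 to 1497, 4101 and 4151 (1.92 ± 0.47, adjusted p = 0.014). *Cdh2*, N-cadherin, rose 2.24-fold, from 3162, 3752 and 3995 to 8019, 8749 and 8061 (adjusted p = 0.002), with changes of 1.31, 1.20 and 0.99 log2 in the cultures. *Dysf*, a membrane repair protein, rose 3.1-fold. *Mymk*, myomaker, which is required for fusion, read 869, 1712 and 4493 at 0h and 6843, 94463 and 158063 at 4d (4.43 ± 1.56, adjusted p = 0.1, and 0.00025 with the block).

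The dystrophin complex links the cytoskeleton to laminin. Of 12 tested genes on its list 5 rose and 1 fell, against 3.13% and 4.33% of all genes. Without P6 the counts were 2 and 0, and without 1999 or without P10 they were 3 and 0. The medians were 1.25 in 1999, 0.85 in P6 and 1.65 in P10. *Dag1*, dystroglycan, rose 3.95-fold from 6460, 4380 and 4588 to 17804, 19889 and 23816 (1.98 ± 0.30, adjusted p = 0.00021). The sarcoglycans *Sgca* and *Sgcb* rose 7.11-fold and 2.64-fold, and sarcospan (*Sspn*) 2.59-fold. Caveolin 1 (*Cav1*), which the list takes in beside the genes of the complex and which is 1 of these 5, rose 3.48-fold. *Sgca* read 332, 205 and 475 at 0h and 1552, 3564 and 4984 at 4d, with no overlap. The *Cav1* call was lost without the 1999 arrays of 4d, since in 1999 the gene went from 660 to 11232 and in P6 and P10 from 5131 and 3370 to 7940 and 6485. *Dtnb*, dystrobrevin β, fell 2.98-fold, and this call was also lost without those arrays.

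**Figure D2:**
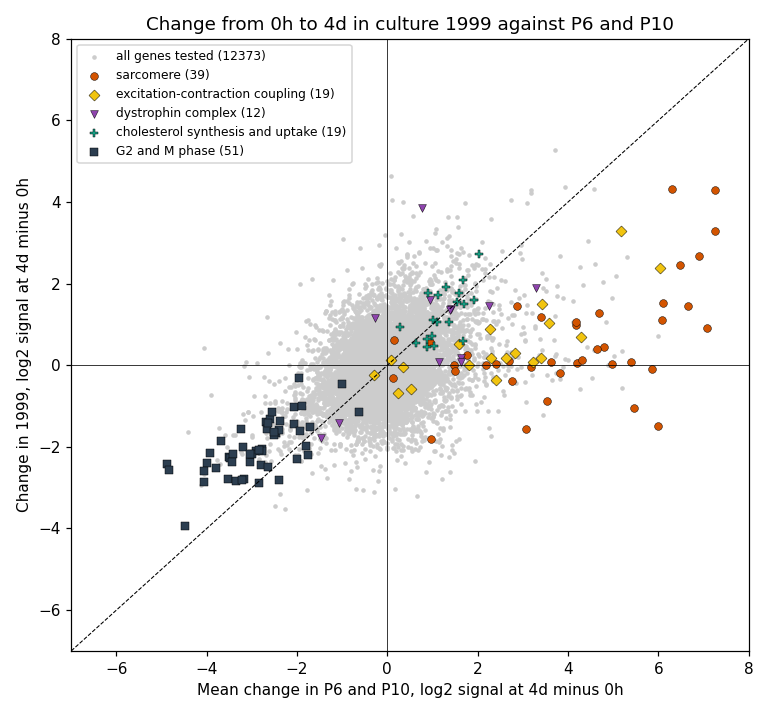
Change in log2 signal from 0h to 4d in culture 1999 (vertical axis) against the mean change in P6 and P10 (horizontal axis). Each point is 1 of 12373 genes, and 5 gene lists are coloured. Many sarcomere genes spread to the right near the zero line of 1999, with a median of 0.13 there, but 12 of the 39 rose by over 1 log2 in 1999. The mitotic list (G2 and M phase) and the cholesterol genes lie near the diagonal.

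Genes of muscle energy supply had 1 of 19 members higher in the model of time (3.13% of all genes), and 0 without P6. With the block 9 were higher (7.65% of all genes). *Pygm*, muscle glycogen phosphorylase, rose 17.2-fold from 187, 51.6 and 206 to 1284, 4735 and 12681 (4.10 ± 1.04, adjusted p = 0.019). *Mb*, myoglobin, read 130, 137 and 70.6 at 0h and 294, 7702 and 24958 at 4d (adjusted p = 0.14, and 0.0016 with the block), and *Cox6a2* and *Pfkm*, the muscle forms of a cytochrome oxidase subunit and of phosphofructokinase, passed with the block. For *Ckm*, muscle creatine kinase, the representing probe set gave 1354, 822 and 888 at 0h and 504, 886 and 923 at 4d (−0.37 ± 0.30, adjusted p = 0.6). Of its 3 further probe sets, all with a suffix mark, 1 gave 1.78 and passed with the block (adjusted p = 0.022) and the others gave 1.84 and −0.54 and passed in neither fit.

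Of 13 tested enzymes of glycolysis in all cells 2 fell (4.33% of all genes), *Pgam1* 2.31-fold and *Pgk1* 1.92-fold, and *Ldha* was lower with the block. The *Pgk1* call was lost without the 1999 arrays of 4d. Of 27 genes of the respiratory chain 0 passed (1 at an unadjusted p under 0.05 in limma) and 1, *Ndufs3*, was higher with the block (7.65% of all genes).

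The promoters of 3 named muscle genes are shown because the E-box CAGCTG, a site type bound by myogenic factors, and the SRF motif were searched in 300 bases around each RefSeq start (250 before and 50 after, GRCm38.p6, plus and minus strands together since CAGCTG and the SRF and MEF2 motifs read alike on both). They belong to *Acta1* (chr8:123894726-123895025, minus strand), *Chrng* (chr1:87205561-87205860, plus strand) and *Pygm* (chr19:6384158-6384457, plus strand). Capitals mark CAGCTG in all 3 and the SRF motif in *Acta1*, 5′ to 3′ on the gene's strand.
Acta1: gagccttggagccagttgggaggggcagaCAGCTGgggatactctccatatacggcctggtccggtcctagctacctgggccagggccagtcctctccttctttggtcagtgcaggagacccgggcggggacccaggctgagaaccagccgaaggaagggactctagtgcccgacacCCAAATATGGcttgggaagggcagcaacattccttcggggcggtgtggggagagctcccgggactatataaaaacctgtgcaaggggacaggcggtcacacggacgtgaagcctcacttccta
Chrng: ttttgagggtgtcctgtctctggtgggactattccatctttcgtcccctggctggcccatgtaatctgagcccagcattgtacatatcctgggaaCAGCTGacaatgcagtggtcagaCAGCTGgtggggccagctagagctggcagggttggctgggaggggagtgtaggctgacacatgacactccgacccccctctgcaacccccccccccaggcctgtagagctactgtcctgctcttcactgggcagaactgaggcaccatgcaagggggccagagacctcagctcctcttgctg
Pygm: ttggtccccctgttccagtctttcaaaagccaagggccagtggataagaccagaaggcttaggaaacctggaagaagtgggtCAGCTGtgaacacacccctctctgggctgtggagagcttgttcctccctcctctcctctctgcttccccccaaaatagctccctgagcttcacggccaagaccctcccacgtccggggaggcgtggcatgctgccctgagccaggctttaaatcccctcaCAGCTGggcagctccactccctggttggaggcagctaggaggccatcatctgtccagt

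A promoter was available for 9888 of the 12373 genes. CAGCTG was in 15.3% of these 9888, in 19.4% of 310 genes that rose, in 11.0% of 444 that fell and in 48.4% of 31 sarcomere genes. The MEF2 motif was in 1.8% of all, in 0.6% of the genes that rose and in 16.1% of the sarcomere genes, and the SRF motif in 1.4%, 1.9% and 16.1%. The wider E-box CANNTG, which takes in CAGCTG, was in 64.3% of all and 87.1% of the sarcomere genes. These windows of *Myog*, *Myl4*, *Tnnc1* and *Mef2c* held no CAGCTG and no full match to the MEF2 (YTAWWWWTAR) or SRF (CCWWWWWWGG) motif. Here Y is C or T, W is A or T and R is A or G. The *Myog* window held ctatatttat, which misses the MEF2 pattern only at its last base, and near matches were not counted. The shares are descriptions, and a match is not a bound site.

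Genes of cell division fell in all cultures. Of 51 tested genes of G2 and M phase 50 fell, against 4.33% of all genes, and for all 51 the 4d samples lay below the 0h samples, against 14.7% of all genes. The median change was −2.59, with −2.10 in 1999, −3.09 in P6 and −2.60 in P10. The exception was *Ube2c*, a ubiquitin-conjugating enzyme of mitotic exit (−0.80, adjusted p = 0.25). In 40 of the 51 genes 1999 showed the smallest fall of the 3 cultures.

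*Pbk*, a mitotic kinase, had the largest fall of the genes that passed, 19.7-fold, from 11717, 13281 and 8523 to 515, 188 and 248 (−4.30 ± 0.38, adjusted p = 9.2e-08). *Cdk1*, the kinase of mitotic entry, fell 16.6-fold from 10455, 12410 and 8964 to 1853, 455 and 112 (−4.05 ± 0.76, adjusted p = 0.0016). *Mki67*, the perichromosomal Ki-67 protein, fell 11.9-fold from 1495, 3210 and 1461 to 149, 12 and 22.9 (−3.57 ± 0.25, adjusted p = 5.6e-09). In each of these 3 genes 1999 kept the highest signal of the 4d samples, and for *Mki67* the 4d mean was under the added value. *Anln* (anillin of the cleavage furrow), *Kif23* (a motor of the midbody), *Cdc20* (an activator of the anaphase-promoting complex), *Aurka* (aurora kinase A), *Top2a* (topoisomerase II), *Ccnb2* (cyclin B2) and *Bub1b* (a spindle checkpoint kinase) fell between 9.13-fold and 17.0-fold.

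The promoters of 3 of these genes are shown for the CCAAT box and the element TTTGAA, which is known from promoters repressed in resting cells (the cell cycle genes homology region). They belong to *Cdk1* (chr10:69352863-69353162, minus strand), *Ccnb2* (chr9:70421505-70421804, minus strand) and *Mki67* (chr7:135716330-135716629, minus strand). Capitals mark CCAAT and TTTGAA on either strand (ATTGG and TTCAAA on the other).
Cdk1: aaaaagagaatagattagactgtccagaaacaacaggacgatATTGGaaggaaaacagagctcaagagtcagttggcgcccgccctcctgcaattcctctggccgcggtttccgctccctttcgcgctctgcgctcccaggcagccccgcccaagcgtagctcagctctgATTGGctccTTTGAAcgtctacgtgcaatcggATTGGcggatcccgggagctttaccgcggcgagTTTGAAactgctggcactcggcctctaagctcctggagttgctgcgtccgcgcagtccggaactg
Ccnb2: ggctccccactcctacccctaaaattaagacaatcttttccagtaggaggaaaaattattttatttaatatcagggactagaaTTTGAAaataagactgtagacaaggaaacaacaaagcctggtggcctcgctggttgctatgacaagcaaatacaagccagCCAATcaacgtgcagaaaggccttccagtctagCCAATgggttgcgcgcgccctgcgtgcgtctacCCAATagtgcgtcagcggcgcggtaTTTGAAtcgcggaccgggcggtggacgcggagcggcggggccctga
Mki67: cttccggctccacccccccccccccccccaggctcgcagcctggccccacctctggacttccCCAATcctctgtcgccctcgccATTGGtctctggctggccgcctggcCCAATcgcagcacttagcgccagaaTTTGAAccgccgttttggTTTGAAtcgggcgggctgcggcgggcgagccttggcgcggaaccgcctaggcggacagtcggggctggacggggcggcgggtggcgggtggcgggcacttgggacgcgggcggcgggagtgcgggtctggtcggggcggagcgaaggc

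Each of these windows held 3 CCAAT boxes and 2 copies of TTTGAA. The latter was in 12.2% of the promoters of all genes tested, in 22.5% of those that fell, in 8.1% of those that rose, in 66.7% of 42 genes of the mitotic (G2 and M phase) list and in 12.8% of 39 genes of S phase. CCAAT was in 38.4% of all, in 73.8% of the mitotic list and in 61.5% of the S phase genes. Both together were in 4.9% of all, 59.5% of the mitotic list and 10.3% of the S phase genes.

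In the list of S phase and DNA replication 34 of 45 genes fell, against 4.33% of all genes, with a median of −1.38. *Pclaf*, which encodes a factor bound to PCNA at the fork, fell 13.3-fold from 3505, 5950 and 3209 to 352, 88.1 and 196 (−3.74 ± 0.38, adjusted p = 1.2e-06). The helicase subunit *Mcm5* fell 8.18-fold, the clamp *Pcna* 5.67-fold, from 11096, 14705 and 10290 to 2078, 1455 and 2624, and the primase subunit *Prim2* 3.57-fold. Without P6, 12 of the 45, and 38 of the 51 on the mitotic list, passed as lower.

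Of 27 genes of cell cycle exit and G1 4 rose and 3 fell, against 3.13% and 4.33% of all genes. Without P10 the counts were 0 and 2, and without P6 they were 2 and 1. *Cdkn1a*, the kinase inhibitor p21, rose 3.36-fold from 8947, 7662 and 8248 to 13794, 31659 and 50390 (1.75 ± 0.48, adjusted p = 0.031), and a second probe set gave 1.89 (adjusted p = 0.0088). Every 4d sample was above every 0h sample, with 1999 the lowest. *Ccnd3*, cyclin D3, which stays on in muscle, rose 3.01-fold and *Ccng2* and *Trp53inp1*, linked to growth arrest, 2.96-fold and 1.96-fold. *Ccnd1*, cyclin D1, fell 3.54-fold from 24866, 24532 and 26344 to 8703, 7959 and 5036 (−1.82 ± 0.27, adjusted p = 0.00017), and its partner *Cdk4* 1.94-fold. Further *Ccnd1* probe sets gave −1.34 and −1.08 and passed in neither fit. In 1999 they changed by 0.20 and 0.72 log2, so the fall in 1999 rests on the representing probe set. Outside the cell cycle lists, *Mthfd1l*, a mitochondrial enzyme of folate metabolism, fell 9.82-fold and *Serpinb2*, an inhibitor of plasminogen activators, 9.64-fold.

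Genes of ribosome making and cell growth passed as lower in 11 of 24 cases (4.33% of all genes) and in 15 with the block (6.93%), with a median of −1.06 that was close in the cultures (−0.98, −1.18 and −0.98). For 21 of the 24 the groups did not overlap, against 14.7% of all genes. The count of 11 was 1 without P10, 5 without 1999 and 6 without P6, and the 6 samples alone with the block gave 3. *Ncl*, nucleolin, fell 2.9-fold from 26129, 32320 and 33648 to 12593, 9908 and 9167 (−1.53 ± 0.32, adjusted p = 0.0042). *Srm*, spermidine synthase, fell 3.45-fold, *Cad*, the first enzyme of pyrimidine synthesis, 2.75-fold and *Fbl*, fibrillarin, 2.12-fold. *Myc*, a growth regulator from the immediate-early list, went from 2336, 1607 and 1615 to 476, 338 and 204 and passed with the block (adjusted p = 0.095, and 0.034 with it). Of 17 chaperones 3 fell and 1, the stress-inducible *Hspa1b*, rose 2.75-fold, against 4.33% and 3.13% of all genes. *Hspd1* and *Hspe1* of mitochondria and *Hsp90aa1* fell 3.11-fold, 2.34-fold and 1.97-fold, while the small heat shock genes of muscle *Hspb2*, *Cryab*, *Hspb8* and *Hspb3* were higher with the block.

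**Figure D3:**
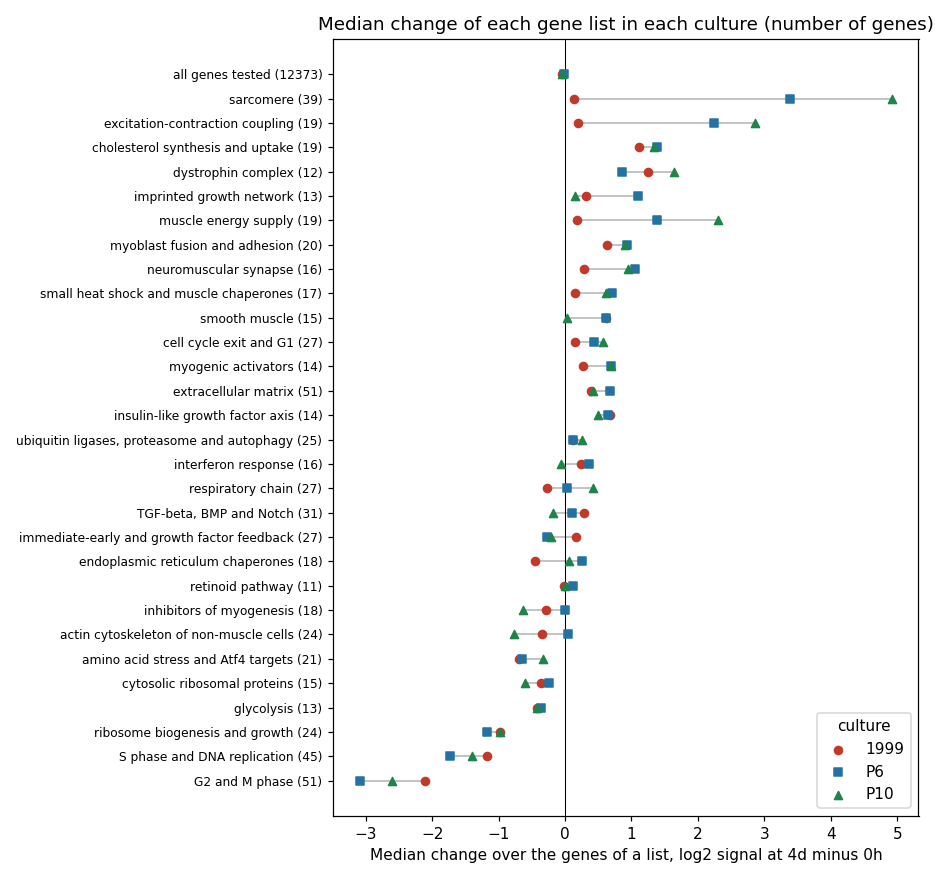
Median change in log2 signal from 0h to 4d over the genes of each list, 1 point for each culture, with the number of genes tested in brackets. The medians of the sarcomere list lie at 0.13, 3.39 and 4.92 in 1999, P6 and P10, while those of cholesterol synthesis (1.11, 1.38 and 1.33) and of G2 and M phase (−2.10, −3.09 and −2.60) lie on 1 side of zero in every culture.

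Matrix genes rose in 12 of 51 cases (3.13% of all genes) and none fell in the model of time, with a median of 0.54. *Ogn*, osteoglycin, a small proteoglycan, rose 16.9-fold from 259, 138 and 1445 to 7655, 9355 and 9868 (4.08 ± 0.81, adjusted p = 0.003), and the 4d samples were alike in the 3 cultures. *Nid2*, a basement membrane link protein, rose 11.5-fold from 51.5, 199 and 305 to 3056, 4742 and 2182 (adjusted p = 0.00092). *Postn*, periostin, rose 9.65-fold. Without P6 1 of the 51 passed as higher. *Timp1*, an inhibitor of metalloproteinases, read 50248, 62249 and 72727 at 0h and 26356, 45475 and 15363 at 4d and was lower with the block (adjusted p = 0.011).

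Fibroblast markers were compared as a list. Of 12 such markers on the chips 7 were tested. *Col3a1* and *Dcn* rose 3.49-fold and 3.74-fold, where 3.13% of all genes rose. The summed signal over all 12 was 151719, 89605 and 110410 at 0h and 152558, 126909 and 95493 at 4d. *Col1a2*, named after its values were seen, read 53579 in 1999 against 102 and 52.3 in P6 and P10 at 0h, and 63867 against 152 and 96.5 at 4d. Without this gene the sums were 98142, 89505 and 110358 at 0h and 88691, 126758 and 95395 at 4d, so that 1999 was then the lowest at 4d and between the others at 0h. The largest member of each of these sums was *S100a4*, at 46402, 66041 and 85674 at 0h and 52962, 72883 and 41746 at 4d. *Col1a1* read 37273, 7336 and 9309 at 0h, highest in 1999, and 18320, 17388 and 25598 at 4d. The order of the cultures therefore depends on which markers are summed. *Lum*, *Thy1*, *Fap*, *Dpt* and *Pi16* lay below the chip median in all 6 samples. Markers of adipocytes, leukocytes, endothelial cells and nerve had no passing member among 5, 3, 4 and 6 tested, where 7.46% of all genes passed. *Adipoq*, *Ptprc*, *Pecam1* and *S100b* were below the chip median throughout. Other markers lay above it in all 6 samples. These were *Lep*, *Cebpa* and *Plin4* of adipocytes, *Cd14* of leukocytes, *Egfl7* of endothelial cells, and *Sox10*, *Nefl* and *Tubb3* of nerve. The markers therefore do not settle whether such cells were present. The part of fibroblasts or of these other cell types in the results was not tested.

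Smooth muscle genes include *Acta2*, smooth muscle α-actin, also an early actin of myoblasts, which rose 5.68-fold from 19004, 3619 and 6465 to 37080, 45004 and 51362 (2.51 ± 0.46, adjusted p = 0.0014). The light chain kinase *Mylk* rose 2.07-fold and *Tagln2* fell 2.96-fold. Of 24 genes of the non-muscle cytoskeleton 3 fell and 1 rose, against 4.33% and 3.13% of all genes. *Stmn1*, stathmin, which destabilises microtubules, fell 12.1-fold from 9123, 12765 and 8687 to 1349, 444 and 593, while *Cfl2*, the muscle cofilin, rose 4.43-fold from 1143, 1816 and 1261 to 3427, 6662 and 12075.

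Among growth factor genes, *Igfbp3*, whose secreted product binds IGF1 and IGF2, rose 7.3-fold from 805, 652 and 143 to 6093, 4120 and 2649 (2.87 ± 0.64, adjusted p = 0.0074). *Igf2*, an autocrine growth factor of differentiating myoblasts, read 744, 935 and 4481 at 0h and 4678, 44596 and 64067 at 4d and passed with the block (adjusted p = 0.2, and 0.0013 with it). In the list of TGF-beta, BMP and Notch the receptors *Tgfbr2* and *Acvr2a* rose 3.4-fold and 2.8-fold and the inhibitory *Smad7* fell 3.82-fold, from 5328, 2424 and 3643 to 1153, 753 and 720. *Fst*, follistatin, which binds activins and myostatin, was higher with the block. Feedback genes of growth factor signalling split, with *Dusp5* and *Etv4* lower 4.34-fold and 2.39-fold and *Spry1* higher 3.61-fold.

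Of 19 genes of cholesterol synthesis and uptake 0 passed in the model of time (11 at an unadjusted p under 0.05 in limma) and 10 were higher with the block (7.65% of all genes). The groups did not overlap for 17 of the 19, against 12.0% of all genes. Their median was 1.27, with 1.11, 1.38 and 1.33 in the cultures. *Idi1*, an isomerase of the pathway, read 1029, 1321 and 3309 at 0h and 7474, 8677 and 9273 at 4d (adjusted p = 0.32, and 0.042 with the block). *Lss*, lanosterol synthase, went from 277, 211 and 501 to 1034, 1010 and 1446 (adjusted p = 0.15, and 0.0063 with the block). Without culture 1999 in the blocked fit 1 of the 19 passed, and without P6 or without P10 in it 5. In the 6 samples alone 8 of the 19 were higher, and 6 with the block. Those fits had 218 and 162 probe sets higher in all.

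Other lists held few genes that passed, where 3.13% of all genes rose, 4.33% fell and 7.65% were higher with the block. Of 25 genes of protein breakdown and autophagy 3 rose, which were *Map1lc3b*, a coat protein of autophagosomes (2.06-fold), the lysosomal protease *Ctsd* (1.8-fold) and the lysosomal membrane protein *Lamp1* (1.7-fold), from 24276, 27721 and 27907 to 37944, 48817 and 50244. Of 21 genes of amino acid stress 1 rose (*Ndrg1*, 4.73-fold), while the median was −0.45 and 11 were lower without overlap, against 14.7% of all genes. Of 16 interferon response genes 1 rose (*Ifi27*, 2.25-fold), and of 15 ribosomal proteins 1 fell (*Rps3*, 1.63-fold). The *Map1lc3b*, *Ndrg1* and *Rps3* calls were lost without the 1999 arrays of 4d. Of 18 chaperones of the endoplasmic reticulum 0 passed (3 at an unadjusted p under 0.05 in limma) and 4 were higher with the block, among them *Xbp1*, a factor of the unfolded protein response (adjusted p = 0.13, and 0.019 with the block). Of 13 imprinted genes *Dcn* rose, and *Plagl1*, a zinc finger factor of growth arrest, fell 5.42-fold from 3864, 2694 and 4193 to 1695, 481 and 159 (−2.44 ± 0.67, adjusted p = 0.031).

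Some genes were chosen because their change in 1999 lay farthest from that in P6 and P10, so their values are a description with no test. *Meg3*, an imprinted non-coding RNA, went from 327 to 11052 in 1999, but from 140 to 158 in P6 and from 158 to 174 in P10. Its signal in 1999 was already 3448 at 6h and read 4457 at 3d, both on the HP scanner. Of its 5 further probe sets 1 gave 1.57 in 1999 and the others between −0.93 and −0.04. *Aqp1*, a water channel, read 1539 in 1999 at 4d and 26.9 and 33.4 in P6 and P10. *Ackr3*, a chemokine receptor, read 833 in 1999 and 29.3 and 44.5 in P6 and P10. At the low end were *Tnni1*, slow troponin I, *Mybpc1*, a slow myosin-binding protein, *Tceal7* and *Tnnc2*, fast troponin C. *Tnni1* went from 13826 to 4890 in 1999 and from 1715 and 1809 to 93105 and 153837 in P6 and P10.

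Over all genes, 541 were higher by more than 1 log2 in both P6 and P10, and of these 213 (39.4%) were so in 1999 and 236 (43.6%) rose by less than 0.5 there or did not rise. Lower by more than 1 log2 in both were 513, of which 239 (46.6%) were so in 1999 and 158 (30.8%) fell by less than 0.5 there or did not fall. The number of genes that moved by more than 1 log2 was alike in the cultures, with 1066, 1099 and 1289 higher and 1012, 1147 and 1322 lower in 1999, P6 and P10.

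The neighbouring times gave no call against 4d. Between 3d and 4d 0 of 24307 probe sets passed in limma (522, or 2.15%, before adjustment at 0.05; the block gave 0 too, with 727, or 2.99%, before adjustment), and between 4d and 7d 0 passed (671, or 2.76%, before adjustment; the block gave 0 too, with 975, or 4.01%). Single cultures moved all the same. The sarcomere median of 1999 was 0.10 at 3d, read on the HP scanner, 0.13 at 4d and 2.74 at 7d, both read on the M10 scanner, and in P6 it was 3.26, 3.39 and 3.75 at these times. In 1999 *Acta1* read 33054 at 36h, 2393 at 3d, 4796 at 4d and 56165 at 7d, and *Myog* 3123, 1144, 1561 and 11798. The median of the G2 and M phase list in 1999 was −2.26, −2.10 and −2.40 at 3d, 4d and 7d.

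**Figure D4:**
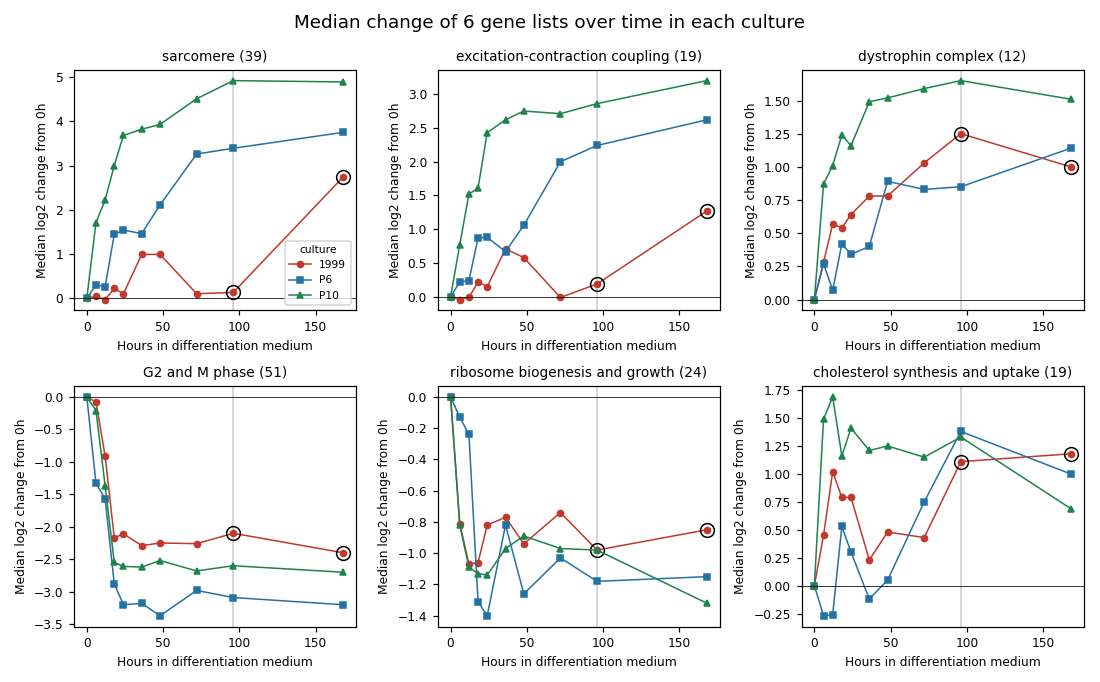
Median change in log2 signal from 0h over the genes of 6 lists against hours in differentiation medium, 1 line for each culture. The grey line marks 4d and black rings mark the 1999 arrays read on the M10 scanner. In 1999 the sarcomere median was 0.13 at 4d and 2.74 at 7d, and the G2 and M phase median had reached −2.17 at 18h.

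Arrays of a chip with the same recorded scan day were counted as a scan session. The 4d array of P10 on MG_U74Cv2 had no scan record, so its session is not known. It was grouped with the other P10 arrays of that chip that lacked a record. By this grouping, arrays of 0h and of 4d mostly lay in different scan sessions. On MG_U74Bv2 the arrays of P10 shared a session, where 802 of 8254 probe sets were higher at 4d by more than 1 log2 and 731 lower. On MG_U74Cv2 the 0h array of 1999 and the 4d array of P6 shared a session, with 1027 of 8630 higher and 884 lower, and on MG_U74Av2 no session held both times. With scan session as a block, the group without a record included, 865 probe sets were higher and 681 lower. The part of scan session in the single calls was not tested.

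Further probe sets of the named genes were compared with those used here. Of 137 such probe sets for 87 genes, 17 passed beside a passing one with the same sign and 0 with the opposite sign. In 40 cases 1 of the pair passed and the signs agreed, as for the further probe sets of *Ccnd1*, and in 69 neither passed. In 11 cases 1 of the pair passed and the other had the opposite sign, which concerned *Adamts5*, *Cdh13*, *Cstf3*, *Dysf*, *Etv4*, *Kif23*, *Mcm5*, *Mki67*, *Ncl*, *Rps3* and *Srm*. With culture as a block 56 pairs passed with the same sign and 0 with opposite signs. Of 95 calls on named genes 24 held whichever culture, or the 1999 arrays of 4d, were left out, among them *Itm2a*, *Cdh13*, *Dag1*, *Tgfbr2*, *Smad7*, *Ccnd1*, *Mki67* and *Pcna*, while 63 were lost without P6, 52 without P10 and 20 without 1999. Without the 1999 arrays of 4d 9 calls were lost, those on *Twist2* and *Hsp90aa1* among them.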

How the data were processed

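RNA of each sample was hybridised to 3 Affymetrix chip designs. The deposited values are linear signal intensities of MAS5, per the labels and the submitters' processing notes, with scaling details not given in the sources used here. The p-values below were computed from the deposited intensities, and all sample columns were used.

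Signals were analysed as log2 of the deposited intensity plus the 25th percentile of the chip (119.8, 270.1 and 213.0 on MG_U74Av2, MG_U74Bv2 and MG_U74Cv2), so folds of genes with a mean under that value are understated. Controls were dropped. Testing required a signal above the chip median on 3 or more of a chip's 30 arrays, which kept 24307 probe sets. limma 3.58.1 (R 4.3.3) fitted time over all 30 arrays of a chip, with Benjamini-Hochberg adjustment over the 3 chips and a two-sided threshold of 0.05. The fit was also run on simulated data with independent arrays and no culture effect. That run therefore cannot show how the recurring cultures affect the p-values. The number of arrays limits the precision.

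Culture names pair the samples, since the same names recur at each time. Deviations from the time means correlated at 0.273, 0.107 and 0.172 on MG_U74Av2 for 1999, P6 and P10, at 0.082, 0.056 and 0.079 on MG_U74Bv2, and at 0.041, −0.008 and 0.071 on MG_U74Cv2. Pairs of different cultures gave −0.242 to 0.174, −0.07 to −0.003 and −0.089 to 0.049 on these chips, so not every sample correlated best with its own culture, and the pairing rests on the names. The fit with culture as a block is an alternative, since no methods text states a block. Others changed the added value, the filter, the normalization, the cultures used and the scan session, and 3 settings without the 1999 arrays of 4d or 7d were added after seeing the data.

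A gene was represented by 1 probe set with a single symbol, MG_U74Av2 first, without a suffix mark where possible, then by mean signal. The comparison, the gene lists and the naming rule were chosen with earlier results of these data known. Named are 10 set genes, the 15 largest rises and falls that passed, the same among those that passed only with the block, up to 4 genes per list and direction by p, the 10 at each end of the difference between 1999 and the other cultures, and the ends of a list. Promoters came from RefSeq (GRCm38.p6) by symbol.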

Additional observations from a re-analysis of the deposited data

Results flagged for a closer look

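In 3 named genes 1999 changed by more than 1 log2 one way and both P6 and P10 by more than 1 log2 the other way, and the difference was not tested. *Grem1*, which encodes the BMP antagonist gremlin 1, changed by 2.00 log2 in 1999 and by −1.11 and −2.75 in P6 and P10, and a second probe set gave 1.47, −1.29 and −2.59. *Tnni1*, slow troponin I, changed by −1.48 in 1999 and by 5.67 and 6.32 in P6 and P10, and its further probe sets gave −1.24 and −0.39 in 1999. *Mybpc1*, a slow myosin-binding protein, changed by −1.04 in 1999 and by 4.62 and 6.31 in P6 and P10, but its further probe sets gave 0.61 and −0.12 in 1999. All 3 genes were among those chosen for a change in 1999 far from that in the other cultures.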

How the results depend on the processing

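Against 597 probe sets higher and 760 lower, culture as a block (the pairing by culture) gave 1419 and 1264, and the 6 samples alone gave 218 and 318, or 162 and 191 with the block. Leaving out 1 culture gave 125 to 414 higher and 218 to 570 lower. Without the 1999 arrays of 4d, also added after seeing the data, 542 were higher and 722 lower. With the block, leaving out culture 1999 gave 1002 higher and leaving out P10 434 lower, and leaving out the 1999 arrays of 4d and 7d, likewise added, gave 1205 higher. The other settings (scan session as a block, other added values, no filter, quantile normalization, an intensity trend with robust fit) gave 544 to 865 higher and 681 to 808 lower. No named gene changed its direction past the threshold in any setting run. The cause of these differences was not tested, beyond the smaller number of arrays in the fits of 6 samples or without a culture. The counts between 3d and 4d and between 4d and 7d were 0 in every setting run.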
